A study of Homo sapiens with 12 samples.

Results

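CCAR2 knockout (KO) MDA-MB-231 cells kept in normoxia were set directly against wildtype (WT) MDA-MB-231 cells held in hypoxia for 24 hours, with 4 RNA-seq libraries on each side. These 8 libraries, of 12 in the series, were chosen by their genotype and treatment labels, and the remaining 4 are WT cells in normoxia, which served neither side and are given only beside the comparison. MDA-MB-231 is an established human line from a triple-negative breast cancer. The KO cells are labelled CCAR2-/- and untreated, and per the methods the knockout was made with LentiCRISPR. The methods report that the edited region was sequenced and that loss of the protein was checked by Western blotting. They do not say whether 1 clone or a pool of cells was used for RNA-seq. The hypoxia cells carry no knockout. Genotype and oxygen therefore differ together between the 2 groups and cannot be told apart in this comparison, although no control library is shared between them. The methods speak of biological replicates but give other numbers of them than the 4 labelled libraries of a group, and the labels do not say whether these came from separate cultures, so p-values measure the spread between these libraries, which may be technical. In bulk RNA, fewer cells of a kind and less RNA per cell cannot be told apart either.

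CCAR2 encodes DBC1, a nuclear protein that binds and inhibits the deacetylase SIRT1 and takes part in transcription and in the p53 response. In cells short of oxygen, the prolyl hydroxylases no longer mark the HIF α subunits for destruction. HIF bound to its partner ARNT then switches on genes for glycolysis, pH control, blood vessel growth and the curbing of mitochondria. The study describes a decline of DBC1 protein over the time in hypoxia, and no protein was measured in these libraries. The comparison asks which genes separate them.

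The deposited values summed to between 68599412 and 152328450 per KO library and to between 76384973 and 195621872 per hypoxia library. They are estimated counts, and these sums are not numbers of reads. Libraries of the same group resembled each other more than libraries of different groups, with Spearman correlations across genes between 0.995 and 0.996 within KO, between 0.990 and 0.996 within hypoxia and between 0.974 and 0.982 across the groups. WT hypoxia replicate 2 stood apart from the other hypoxia libraries on the second principal component, which held 13.5% of the variance. Markers of this mesenchymal line were high in both groups, with VIM between 4408 and 5397 CPM, that is counts scaled to the size of the library and CD44 between 524 and 634 CPM. Of the markers of other cells, HBB had no count in any of the 8 libraries, and the blood list summed to between 73.5 and 84.0 CPM in KO and between 98.5 and 116 CPM in hypoxia, nearly all of it from CD68. The fibroblast list summed to between 20.5 and 24.0 CPM in KO and between 13.1 and 19.0 CPM in hypoxia, the endothelial list to between 10.4 and 11.3 CPM and between 7.68 and 9.99 CPM, and the list of luminal breast cells to between 1953 and 2128 CPM and between 2452 and 2856 CPM. The luminal list includes the keratin genes KRT8, KRT18 and KRT19. KRT19 alone had between 35432 and 77006 estimated counts in the KO libraries and between 57687 and 153829 in the hypoxia libraries. These counts are not scaled to the size of the library and cannot be set against the CPM sums. After scaling, KRT19 was called lower in KO, as given below. The part of these lists in the results was not tested.

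CCAR2 itself was measured first, since it checks the labels. CCAR2 (ENSG00000158941, GRCh38 chromosome 8, 22604632 to 22621514) was at 54.7, 56.7, 61.3 and 58.5 CPM in the 4 KO libraries and at 149, 143, 154 and 152 CPM in the 4 hypoxia libraries. Every KO library lay below every hypoxia library. The log2 fold change, KO over hypoxia in this and all further values of the comparison, was -1.37 with a standard error (SE) of 0.05. In edgeR's quasi-likelihood fit the Benjamini-Hochberg adjusted p was 1.2e-08. An exact permutation test, two-sided and over log2 CPM, gave p = 0.0286, and no lower value can be had from 70 ways to split 8 libraries evenly. The hypoxia level was close to that of WT normoxia, at 149 ± 4.95 against 146 ± 3.11 CPM (SD, n = 4 each). The mRNA that remained in KO cells, 57.8 ± 2.81 CPM (SD, n = 4), is not a measure of protein.

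Of 21158 genes with enough counts to be tested, KO cells had 1498 at a higher level than hypoxic WT cells (7.08% of the genes tested) and 1667 at a lower level (7.88%). Calls required a Benjamini-Hochberg adjusted p below 0.05 in edgeR together with a log2 fold change of 0.5 or more in either direction. A log2 fold change of at least 1 was reached by 582 of the genes called higher and 637 of those called lower, and one of at least 2 by 155 and 120. The CPM of the groups did not overlap for 1424 of the genes called higher and 1528 of those called lower, where 35.9% of all genes tested showed no overlap. The median log2 fold change of all genes tested was -0.02, a value that the scaling of the libraries sets near 0.

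The 15 lowest genes were led by genes that hypoxia is known to induce and by secreted factors. CA9, which encodes carbonic anhydrase IX, an enzyme of the cell surface that controls pH, was at 0.195, 0.0717, 0.0974 and 0.0838 CPM in KO and at 4.94, 5.40, 4.43 and 4.85 CPM in hypoxia. Its log2 fold change of -5.39 (SE 0.26) was the lowest of all genes named, and KO cells kept CA9 near the WT normoxia range of 0.0389 to 0.0948 CPM. CDK18, a cyclin-dependent kinase, PPFIA4, a liprin, and the glycolytic aldolase ALDOC had log2 fold changes of -3.00, -2.49 and -2.30. In these 3, hypoxia was called higher than WT normoxia, with log2 fold changes of 2.32, 2.77 and 2.52, and KO was not called against normoxia, with log2 fold changes of -0.67, 0.29 and 0.23.

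Another layout among the lowest genes had both groups away from WT normoxia, in opposite directions. ESM1, which encodes endocan, a secreted proteoglycan of the angiogenic response, was at 4.47, 3.57, 4.39 and 4.87 CPM in KO and at 63.5, 67.5, 66.9 and 66.3 CPM in hypoxia, with a log2 fold change of -3.93 (SE 0.09, edgeR adjusted p = 5.7e-10). The 4 WT normoxia libraries were between the groups, from 35.1 to 39.0 CPM. KISS1, the precursor of the metastasis-suppressing kisspeptins, was at 39.3, 42.0, 40.9 and 43.6 CPM in KO and at 265, 316, 295 and 297 CPM in hypoxia (log2 fold change -2.83, SE 0.06), again with WT normoxia between them at 154 to 189 CPM. The long non-coding RNA UCA1 had log2 fold changes of -3.84 between the groups, 0.86 for hypoxia over normoxia and -2.97 for KO over normoxia. C1QL1, a secreted C1q-like protein, was at -2.69 between the groups, 1.95 for hypoxia over normoxia and -0.73 for KO over normoxia. LNCOG, PSG1, a pregnancy-specific glycoprotein, and CACNG4, a calcium channel subunit, lay in the same order, with log2 fold changes of -2.35, -2.46 and -2.45 between the groups. KRTAP2-1 and KRTAP2-2, keratin-associated proteins of hair, were at -2.57 and -2.62, and since they are near-identical neighbours their reads could be split either way. The ribosomal protein pseudogene RPSAP47, at -2.63 (SE 0.51), did not have this layout. Its log2 fold change was 2.26 for hypoxia over normoxia, and KO was not called against normoxia, at -0.37. It shares sequence with other copies, and its hypoxia libraries spread from 2.91 to 11.1 CPM.

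The 15 highest genes were mostly low in both WT groups. MUC5AC, a gel-forming mucin, was at 8.76, 7.26, 9.35 and 7.78 CPM in KO and at 0.427, 0.184, 0.432 and 0.294 CPM in hypoxia, the highest log2 fold change among them at 4.61 (SE 0.23). GRAMD1B, a carrier of cholesterol from the plasma membrane, was at 2.42, 1.55, 2.25 and 1.81 CPM in KO and at 0.0518, 0.0490, 0.0912 and 0.157 CPM in hypoxia (log2 fold change 4.38, SE 0.33). Neither gene overlapped between the groups, and both rest on low counts in hypoxia. The surfactant protein gene SFTPB (4.16), the hyaluronan-degrading CEMIP (3.98), the mucin-folding AGR2 (3.84) and HOPX (3.83), an atypical homeodomain protein, came next by log2 fold change. SFTPB had no count in hypoxia replicate 1. Genes of immune signalling were also among them, namely the T and NK cell receptor gene CD96 (3.35), the tryptophan-degrading KYNU (3.11), the GITR ligand TNFSF18 (2.95) and the interferon-induced IFI44L (2.83). The water channel AQP1, the junction protein JCAD, KLHL4, FSIP2 and the non-coding MIR3681HG completed the 15, with log2 fold changes of 2.96, 2.94, 2.85, 3.32 and 2.56.

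**Figure D1:**
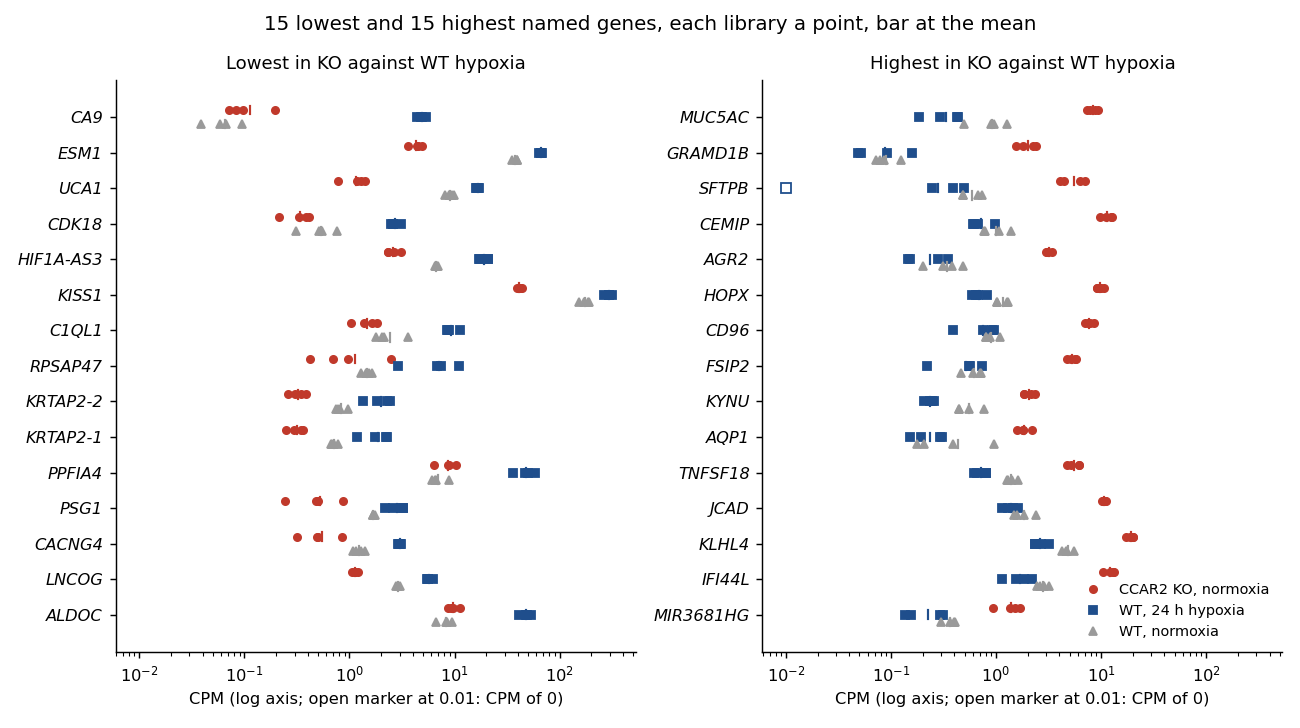
CPM per library (log axis) of the 15 lowest and the 15 highest genes among called genes averaging 100 counts or more without overlap, with KO in circles, WT hypoxia in squares, WT normoxia in triangles, a short bar at each mean and an open marker for a CPM of 0. KO and hypoxia do not overlap in any of the 30 genes by construction, the 4 normoxia libraries of ESM1, KISS1 and UCA1 lie between them, and those of CA9 and ALDOC lie beside the KO libraries.

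The HIF program was lower in KO cells than in hypoxia. Of 40 HIF target genes, 0 were higher and 27 were lower, which is 67.5% of the list where 7.88% of all genes tested were lower. At an unadjusted p under 0.05, 1 member was higher in edgeR, and DESeq2 and limma-voom called 0 higher. The list's median log2 fold change was -0.77, against -0.02 for all genes tested. NDRG1, which is strongly induced by low oxygen, was at 246, 254, 291 and 269 CPM in KO, and its hypoxia libraries lay between 1166 and 1323 CPM, 4.72-fold higher (log2 fold change -2.24, SE 0.07). ANKRD37 and the lipase inhibitor ANGPTL4 were at -2.15 and -2.01, with ANGPTL4 higher in KO than in WT normoxia by 0.52. BNIP3, which directs mitochondria to autophagy, and PDK1, a kinase that inhibits pyruvate dehydrogenase, were at -1.82 and -1.29, named after their values were seen.

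Some classical targets did not separate the groups by the fold required. VEGFA, the main angiogenic growth factor, was at 116, 116, 123 and 120 CPM in KO and at 151, 120, 143 and 139 CPM in hypoxia, and the log2 fold change was -0.22 (SE 0.06, edgeR adjusted p = 0.019). The groups overlapped, and both lay above the WT normoxia range of 60.2 to 72.3 CPM. The glucose transporter gene SLC2A1 differed by -0.19 on the log2 scale (SE 0.05), with 349 ± 10.03 CPM in KO, 398 ± 23.9 CPM in hypoxia and 258 ± 4.59 CPM in WT normoxia (SD, n = 4 each). VEGFA and SLC2A1 were chosen after their values were seen.

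Glycolysis moved with the HIF targets. Of 23 genes of glycolysis and lactate export, 15 were lower (65.2%, against 7.88% of all genes tested), 0 were higher (0 also at an unadjusted p under 0.05 in edgeR, in DESeq2 and in limma-voom), and all 23 had a negative log2 fold change, with a median of -0.61. PGK1, phosphoglycerate kinase, was at 338, 342, 348 and 339 CPM in KO and at 737, 795, 672 and 776 CPM in hypoxia, 2.18-fold higher (log2 fold change -1.13, SE 0.06). KO was near the WT normoxia range of 356 to 372 CPM. The neuronal enolase ENO2 was at -1.48 and lactate dehydrogenase LDHA at -0.95.

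The promoters of 4 genes lower in KO, chosen after their values were seen, are shown since each holds the core letters of the HIF response element, ACGTG. The 250 bases before the RefSeq start of each gene are given 5′ to 3′ along the gene, build GRCh38.p14, with ACGTG or its reverse complement CACGT in capitals, at chr9:35673678-35673927 (CA9, plus strand), chr17:28576896-28577145 (ALDOC, minus strand), chr4:185396591-185396840 (ANKRD37, plus strand) and chr1:203026241-203026490 (PPFIA4, plus strand).
CA9: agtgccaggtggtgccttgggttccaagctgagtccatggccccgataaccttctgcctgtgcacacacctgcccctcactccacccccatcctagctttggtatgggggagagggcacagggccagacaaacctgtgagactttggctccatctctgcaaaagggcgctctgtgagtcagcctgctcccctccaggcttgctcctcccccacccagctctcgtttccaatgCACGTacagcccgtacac
ALDOC: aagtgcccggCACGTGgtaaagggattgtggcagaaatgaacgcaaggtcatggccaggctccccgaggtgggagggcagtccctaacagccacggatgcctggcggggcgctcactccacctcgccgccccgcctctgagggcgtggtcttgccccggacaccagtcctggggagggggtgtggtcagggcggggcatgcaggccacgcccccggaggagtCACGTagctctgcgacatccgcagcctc
ANKRD37: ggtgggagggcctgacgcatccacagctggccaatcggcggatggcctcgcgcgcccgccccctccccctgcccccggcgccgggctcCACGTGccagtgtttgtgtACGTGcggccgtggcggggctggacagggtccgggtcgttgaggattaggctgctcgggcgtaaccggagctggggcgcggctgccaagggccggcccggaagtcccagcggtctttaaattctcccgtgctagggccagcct
PPFIA4: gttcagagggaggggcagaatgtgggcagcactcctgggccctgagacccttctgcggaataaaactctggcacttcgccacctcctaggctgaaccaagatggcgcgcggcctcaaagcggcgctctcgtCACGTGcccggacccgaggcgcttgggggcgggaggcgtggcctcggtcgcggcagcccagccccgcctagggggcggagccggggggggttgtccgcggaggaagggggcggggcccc

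In CA9 the match begins 18 bases before the start. In ALDOC, ANKRD37 and PPFIA4 some letters lie within CACGTG, which reads the same on both strands and so counts as a match on each. Promoters were matched by symbol for 9118 of the genes tested. ACGTG on either strand was in 12 of 18 matched promoters of HIF targets lower in KO (66.7%), in 22.6% of the 695 promoters of all genes lower in KO, in 18.5% of the 702 promoters of genes higher in KO and in 23.4% of those of all genes tested. The second core form, GCGTG on either strand, was in 9 of the 18 promoters of HIF targets (50%) and in 39.9%, 37.9% and 44.2% of the other 3 sets. The median GC content of the HIF target promoters was 69.4%, against 64.8% for all genes tested. All promoters of the table held ACGTG in 18.4% and GCGTG in 31.1%. HIF targets not lower in KO were not counted, so the 66.7% cannot be tied to being lower in KO. A match is a description of letters and not a site of binding.

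The transcripts of the oxygen-sensing machinery moved in both directions. HIF1A (ENSG00000100644, GRCh38 chromosome 14, 61695513 to 61748259), which encodes the oxygen-regulated subunit HIF1α, was at 428, 409, 395 and 416 CPM in KO and at 110, 102, 113 and 101 CPM in hypoxia, 3.87-fold higher in KO (log2 fold change 1.95, SE 0.05, edgeR adjusted p = 3.3e-09). No library overlapped, and WT normoxia lay between the groups, from 255 to 282 CPM. HIF1A-AS3, a non-coding gene on the opposite strand that overlaps HIF1A, went the other way, at 2.67, 2.31, 3.09 and 2.32 CPM in KO and 17.5, 20.96, 17.2 and 20.8 CPM in hypoxia (log2 fold change -2.88). Whether counting used the strand is not stated, so reads of the overlapping stretch may belong to either gene. EPAS1, which encodes HIF2α, was at 70.2, 72.8, 71.8 and 72.0 CPM in KO and at 24.6, 21.1, 25.3 and 23.1 CPM in hypoxia (log2 fold change 1.61, SE 0.06). Here hypoxia was close to WT normoxia, at 24.3 to 29.02 CPM. ARNT2, a partner of the α subunits, was higher in KO by 1.38, and the oxygen sensors EGLN3 and EGLN1, themselves HIF targets, were lower in KO than in hypoxia, at -1.32 and -0.62, with EGLN3 higher in KO than in WT normoxia by 0.61. Of the 18 demethylases that need oxygen, 3 were higher (16.7%) and 1 was lower (5.56%), with KDM3A at -0.74 and TET2 at 0.68. The count of 3 rests on WT hypoxia replicate 2, without which 1 was higher and 2 were lower.

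Interferon-stimulated genes were higher in KO cells. Of 37 genes, 19 were higher and 0 were lower (51.4% against 7.08% of all genes tested), and the list's median was 0.52 on the log2 scale. At an unadjusted p under 0.05, 2 were lower, DESeq2 and limma-voom called 0 lower, and edgeR called 1 lower without WT hypoxia replicate 4. OAS2, an enzyme that senses double-stranded RNA and activates RNase L, was at 13.4, 12.5, 11.4 and 11.6 CPM in KO and at 3.24, 3.02, 2.41 and 2.27 CPM in hypoxia (log2 fold change 2.16, SE 0.13). OAS1 and OASL were at 2.48 and 1.81, and the OAS genes are similar in sequence. The RNA helicase sensor gene IFIH1 and the antiviral IFIT2, named after their values were seen, were at 1.76 and 1.75. Against WT normoxia, which both comparisons share, the list's medians were 0.58 for KO and 0.02 for hypoxia.

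NRF2 and antioxidant targets were called in 1 direction only, with 14 of 30 higher (46.7%, against 7.08% of all genes tested) and 0 lower in edgeR (0 also at an unadjusted p under 0.05, in DESeq2 and in limma-voom) and a median log2 fold change of 0.49. AKR1C1, a reductase of ketosteroids and reactive aldehydes, was at 8.33, 7.42, 6.94 and 7.14 CPM in KO and at 1.71, 2.23, 1.56 and 2.01 CPM in hypoxia (log2 fold change 1.99, SE 0.13). AKR1C2 and AKR1C3 were at 1.60 and 1.53, and since these neighbours are near-identical their counts are uncertain as separate values. The exporter ABCC3 was at 1.53. In 3 further members, named after their values were seen, the groups lay on either side of normoxia. NQO1, a quinone reductase, was at 288 ± 16.01 CPM in KO, 208 ± 12.1 CPM in WT normoxia and 121 ± 12.5 CPM in hypoxia (SD, n = 4 each), and the cystine importer SLC7A11 at 129 ± 11.9, 93.3 ± 9.84 and 53.8 ± 2.45 CPM. GCLM, a subunit of the enzyme that starts glutathione synthesis, had the same order and a log2 fold change of 1.09 between the groups.

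Secreted signals separated the groups in both directions. Shares of the lists that follow stand against 7.08% of all genes tested called higher and 7.88% called lower. Of 24 cytokine, chemokine and NF-κB genes tested, 10 were higher (41.7%) and 3 lower (12.5%) in KO, with a median log2 fold change of 0.54. IL6, a cytokine of inflammation, was at 3.12, 3.57, 2.65 and 3.81 CPM in KO and at 0.634, 0.857, 0.614 and 0.800 CPM in hypoxia (log2 fold change 2.17, SE 0.17). The colony-stimulating factors CSF2, CSF3 and CSF1 were at 1.98, 1.51 and 1.29, with no overlap. IL11, a cytokine related to IL6, IL32 and TNFAIP3, which restrains NF-κB, were lower, at -0.98, -0.61 and -0.71.

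Among 37 angiogenic and growth factors, 9 were higher (24.3%) and 12 were lower (32.4%). EREG, a ligand of the EGF receptor, was at 110, 102, 103 and 109 CPM in KO and at 25.4, 24.6, 24.7 and 20.8 CPM in hypoxia, 4.44-fold higher in KO (log2 fold change 2.15, SE 0.07). LTBP1, which stores latent TGF-β in the matrix, GDF15, a stress hormone, and BMP4 were at 1.97, 1.76 and 1.56. ADM, which encodes the vessel-dilating peptide adrenomedullin, was at -1.53, beside ESM1, KISS1 and ANGPTL4 given above. The list's median of 0.13 fell below 0 when KO replicate 1 (-0.10), KO replicate 3 (-0.19) or WT hypoxia replicate 4 (-0.19) was left out. It was also below 0 in DESeq2 (-0.02) and without a filter on low counts (-0.04). The same held with at least 10 counts required in every library (-0.03) and with counts divided by 4 (-0.19).

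Adhesion and matrix genes differed gene by gene. FN1, which encodes fibronectin, lay between 1145 and 1277 CPM in KO and was at 447, 320, 436 and 411 CPM in hypoxia (log2 fold change 1.59, SE 0.09), where WT normoxia was at 365 to 458 CPM. COL6A1, a chain of collagen VI, was at 1.70 and the metastasis-linked S100A4 at 1.57. COL8A1, COL12A1 and TGFBI, a matrix protein induced by TGF-β, were at -1.34, -0.89 and -0.93. Of the 35 mesenchymal and matrix genes tested, 9 were higher (25.7%) and 4 lower (11.4%, near the share of all genes), with a median of 0.19.

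Of 37 genes for integrins, proteases and hyaluronan turnover, 11 were higher (29.7%) and 3 lower (8.11%, near the share of all genes), with a median of 0.31. The collagen receptor subunit ITGA2 and the hyaluronan synthase HAS2 were at 1.28 and 1.36 and the collagenase MMP13 at 1.49, beside CEMIP at 3.98. The 3 lower genes were PLAT, tissue plasminogen activator, at 267, 272, 293 and 282 CPM in KO and 699, 652, 708 and 765 CPM in hypoxia (log2 fold change -1.35), the metalloprotease ADAM12 at -1.25 and the collagenase MMP1 at -1.01. PLAT was near its WT normoxia level in KO cells (279 ± 11.3 against 299 ± 10.7 CPM), and MMP1 was near it in hypoxia (728 ± 59.4 against 794 ± 52.4 CPM; SD, n = 4 each).

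The list of epithelial, mucin and keratin genes had 9 of 26 higher (34.6%) and 2 lower (7.69%, near the share of all genes). Its higher members included MUC5AC, SFTPB and AGR2 and the epithelial transcription factor ELF3, at 2.005. Keratin genes did not follow, with KRT14 and KRT19 at -2.23 and -0.73 and no keratin called higher. The median of this list, 0.19, turned to -0.25 when at least 10 counts were required in every library.

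**Figure D2:**
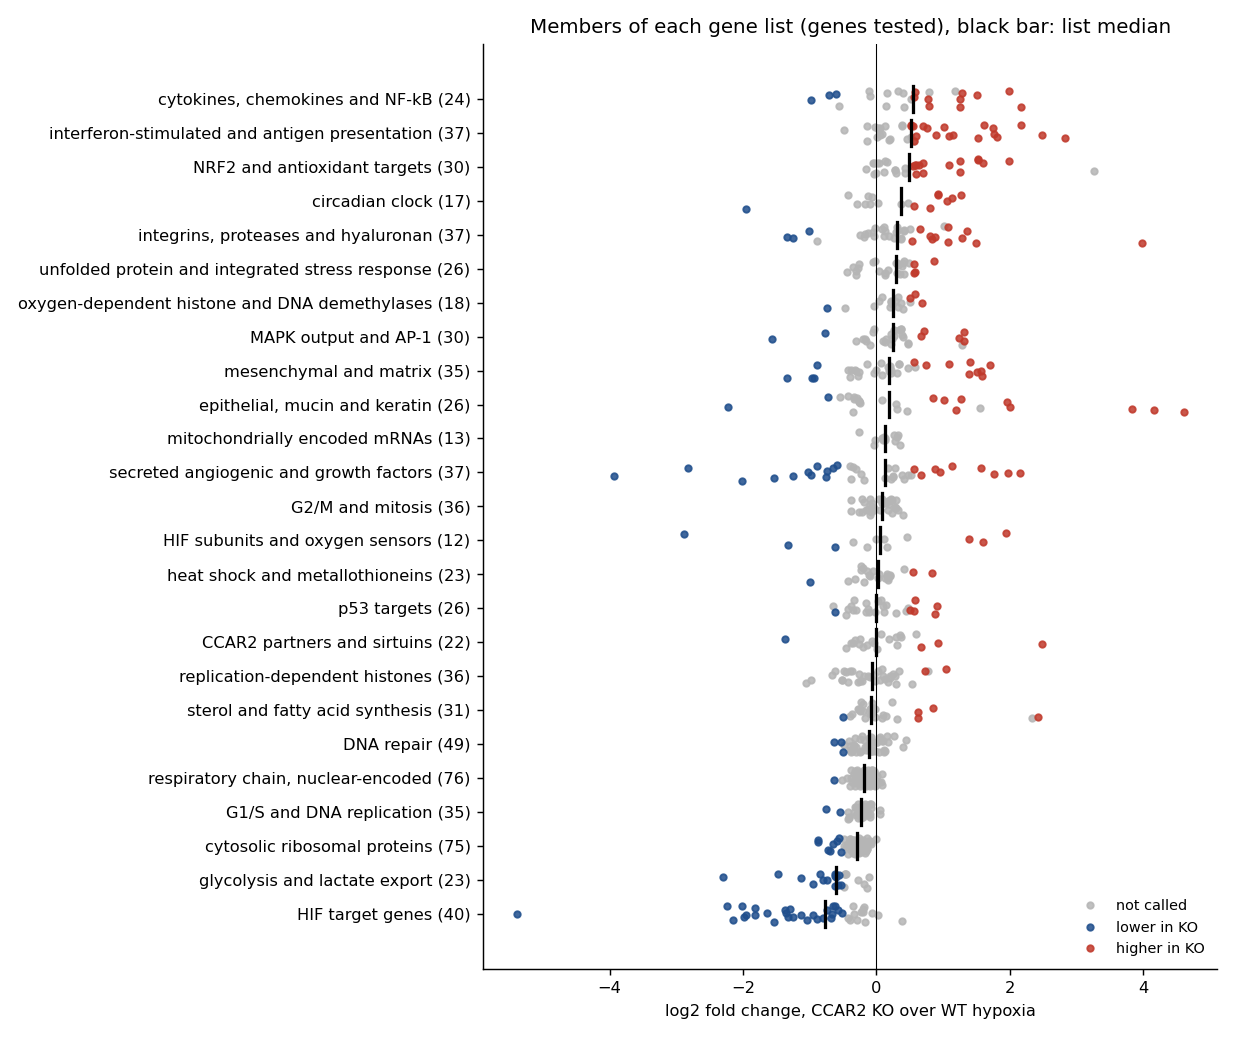
Log2 fold change of KO over WT hypoxia for every tested member of 25 gene lists (number tested in parentheses), with genes called higher in KO in red, called lower in blue, not called in grey, and a black bar at each list's median. The HIF targets and glycolysis lie to the left with medians of -0.77 and -0.61, the cytokine, interferon and NRF2 lists to the right with medians of 0.54, 0.52 and 0.49, and most lists of basic cell machinery lie within a narrow band around 0.

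Regulators of signalling, metabolism and the clock also differed. Of 30 genes of MAPK output and AP-1, 5 were higher (16.7%) and 2 were lower (6.67%). DUSP1, a phosphatase that shuts off MAP kinases, was at 92.8, 100, 98.3 and 96.7 CPM in KO and at 299, 267, 300 and 281 CPM in hypoxia (log2 fold change -1.57), and JUN was at -0.77. The transcription factor ETV1, the inhibitor SPRY1 and the phosphatase DUSP4 were at 1.31, 1.24 and 0.72. In the circadian list, 7 of 17 were higher (41.2%) and 1 was lower (5.88%). TEF, NPAS2, PER2 and NR1D1 were at 1.26, 1.14, 1.07 and 0.93, and RORA, which is on the HIF target list too, was at -1.95, while 2 were lower without KO replicate 2 or without WT hypoxia replicate 3. ABCA1, which exports cholesterol, led the sterol list at 2.42, with SREBF1 and SCD at 0.85 and 0.62, while the list of 31 had 4 higher (12.9%), 1 lower (3.23%) and a median of -0.08. The unfolded protein and integrated stress list had 4 of 26 higher (15.4%) and 0 lower in edgeR (5 lower at an unadjusted p under 0.05, 0 in DESeq2 and in limma-voom), led by CHAC1 and HYOU1 at 0.86 and 0.58. With a trend on GC content removed, edgeR called 3 higher and 1 lower in this list. Of 23 heat shock and metallothionein genes tested, 2 were higher (8.70%) and 1 lower (4.35%), with a median of 0.02. Of all genes tested, 7.08% were higher and 7.88% lower. The zinc exporter SLC30A1, at 0.83, and the metallothionein MT1A, 1 of several near-identical genes, at -1.002, were among those called.

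Lists of the p53 response and of basic cell machinery followed. Of 26 p53 targets, 5 were higher (19.2%, against 7.08% of all genes tested) and 1 lower (3.85%, against 7.88%), with a median of 0.00035. TP53I3, TP53INP1 and SESN2 were at 0.91, 0.88 and 0.56 and the death receptor gene FAS at -0.62, and CDKN1A, the p21 gene, which like SIRT1 was chosen after its values were seen, was not called at 0.29 (90.8 ± 2.65 CPM in KO, 73.9 ± 3.84 CPM in hypoxia, 56.8 ± 3.16 CPM in WT normoxia, SD, n = 4 each). SIRT1, the partner of DBC1, was at 0.31 (SE 0.08) and was not called. Among 22 partners of CCAR2 and sirtuins, 3 were higher (13.6%), among them NR1D1 (0.93) and NAMPT, the rate-limiting enzyme of NAD salvage (0.67). Counts of 0 in the following lists were 0 in DESeq2 and limma-voom too, and edgeR's counts at an unadjusted p under 0.05 stand in parentheses. Of 35 G1/S and replication genes, 0 were higher (0) and 2 lower (5.71% of the list), with a median of -0.23 and POLA2 at -0.76. Of 49 DNA repair genes, 0 were higher (3) and 3 lower (6.12% of the list), with a median of -0.11 and ERCC2 at -0.63. Of 36 G2/M genes, 0 were higher (15) and 0 lower (7), with a median of 0.08. With a trend on GC content removed, 1 G2/M gene was called higher in edgeR. Of 36 replication-dependent histone genes tested, 2 were higher (5.56%, against 7.08% of all genes tested), H2BC21 and H2BC4 at 1.04 and 0.73. In this list 0 were lower (7), with a median of -0.06. In the fit of all 12 libraries, and without WT hypoxia replicate 3, 2 histone genes were lower. Of 58 such genes listed, 13 had no count in any of the 8 libraries. The methods report sequencing of poly-A RNA, and the part of RNA selection in the histone values was not tested.

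Of the 75 ribosomal protein genes, 8 were called lower, a share of 10.7% that is near the 7.88% of all genes tested, and 0 higher (0 also at an unadjusted p under 0.05 in edgeR, in DESeq2 and in limma-voom), led by RPL38, RPS29, RPS27 and RPL37 at -0.88, -0.87, -0.72 and -0.69. The groups overlapped for RPS29, with 1 hypoxia library at 81.1 CPM below 1 KO library at 83.8 CPM. All 75 had a negative log2 fold change, with a median of -0.29. Their share of the sum lay between 4.83% and 5.07% in KO and between 5.56% and 6.78% in hypoxia. Of 76 nuclear genes of the respiratory chain, 1 was lower (NDUFA3, -0.64), a share of 1.32%, or 3 without WT hypoxia replicate 1, with a median of -0.19. The 13 mRNAs encoded in mitochondria held 0 calls in edgeR, DESeq2 and limma-voom (5 higher and 0 lower at an unadjusted p under 0.05 in edgeR) and a median of 0.13, and took between 4.27% and 4.72% of the sum in KO and between 3.37% and 4.41% in hypoxia.

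The position of WT normoxia was read for the genes called. Its mean lay between the 2 groups for 78.1% of the genes lower in KO and 75.8% of those higher, against 42.2% of all genes tested. Among the 1667 genes lower in KO, 705 were called higher in hypoxia than in normoxia, where 5.83% of the genes tested were, and 433 were called lower in KO than in normoxia, where 2.94% were. Among the 1498 genes higher in KO, 846 were called higher in KO than in normoxia (6.73% of the genes tested) and 197 lower in hypoxia than in normoxia (1.43%). The genes called were selected for a gap between the groups, which by itself raises these shares over those of all genes tested. The comparisons also share libraries, so these shares are a description. The medians of the HIF target list were 0.80 for hypoxia over normoxia and 0.12 for KO over normoxia, and those of the cytokine list -0.11 and 0.42. Replication-dependent histones, with little difference between the groups and the limits given above, were at -0.48 and -0.42.

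**Figure D3:**
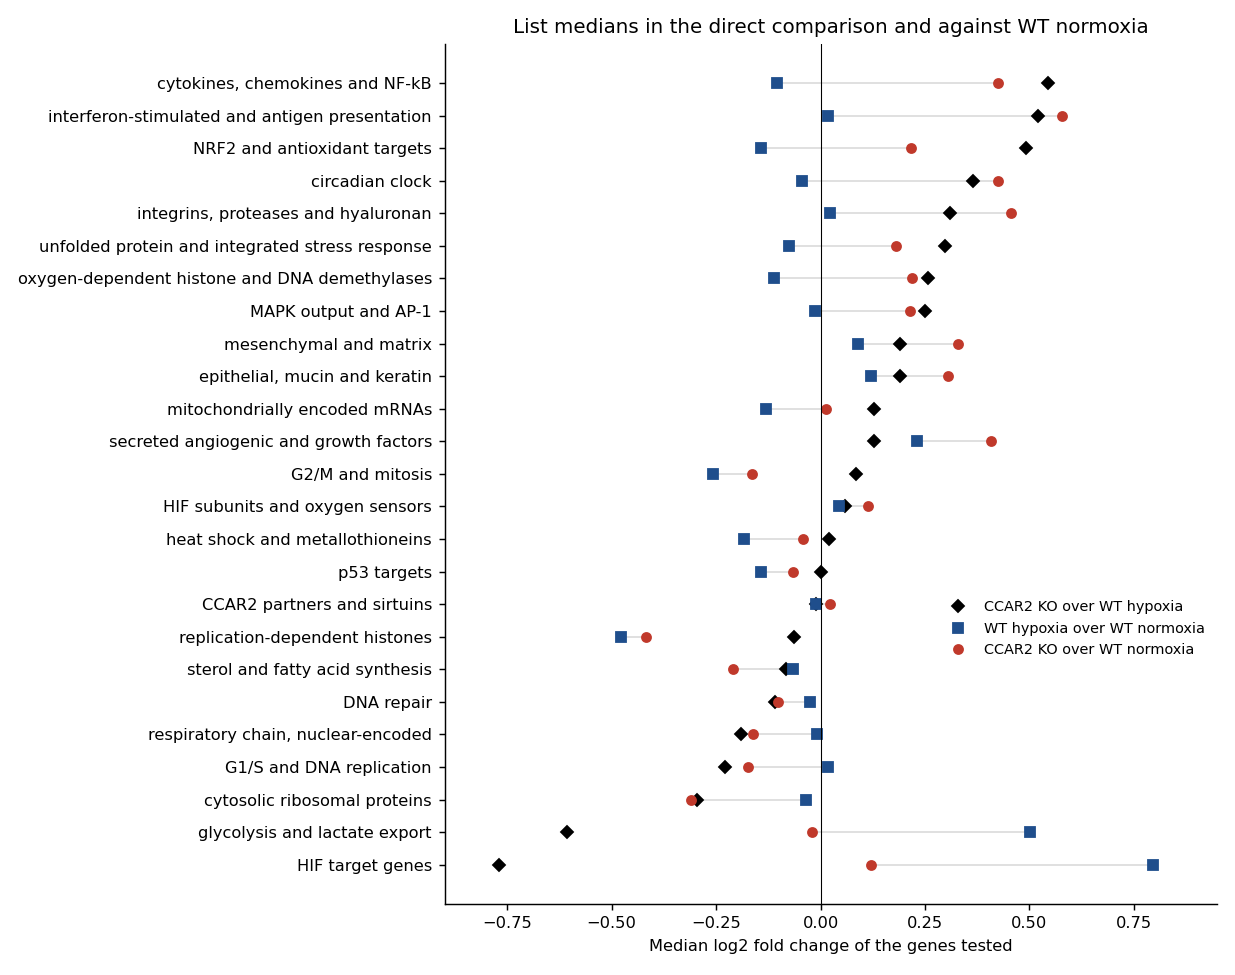
Median log2 fold change of each list in KO over WT hypoxia (diamonds), WT hypoxia over WT normoxia (squares) and KO over WT normoxia (circles), where the last 2 share the normoxia libraries. For HIF targets the square lies at 0.80 and the circle at 0.12, for interferon-stimulated genes the circle lies at 0.58 and the square at 0.02, and for replication-dependent histones both lie below -0.4.

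By kind of gene, 8.66% of 14555 protein-coding genes were higher and 8.09% lower in KO, whereas 4.23% of 1323 lincRNAs were higher and 11.04% lower, with medians of -0.0029 and -0.14. Calls also varied with the make-up of the transcript. Over 12465 protein-coding genes with a mean of at least 100 counts, cut into 5 bins of nearly equal size, 11.6% of the bin with the lowest GC content were higher in KO and 3.61% lower, while in the bin with the highest GC content 5.18% were higher and 17.2% lower. In the bin with the shortest transcripts 5.13% were higher and 10.9% lower, and in that with the longest 14.8% were higher and 5.22% lower. Median log2 fold changes ran from 0.12 to -0.15 over the bins of GC content and from -0.12 to 0.15 over those of length. With the trend on GC content removed, the counts were 26 HIF targets and 13 glycolysis genes lower and 20 interferon-stimulated and 13 NRF2 genes higher, and the part of GC content in the results was not tested further. By chromosome, medians lay between -0.10 on chromosome 19 and 0.09 on chromosome 4.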

How the data were processed

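RNA-seq of 12 MDA-MB-231 libraries was used. The values deposited by the authors are estimated counts per gene, rounded here to whole numbers. The labels name HISAT2, SAMtools and featureCounts and the methods StringTie, so which tool made the table is not settled, and the genome build and the use of strand are not given in the sources used here. Positions, lengths and GC content come from GENCODE 29 (GRCh38), matched by Ensembl identifier for 98.1% of the genes tested.

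The 8 libraries of KO and WT hypoxia were fitted with edgeR 4.0.16 (R 4.3.3) after filterByExpr and TMM scaling, by the quasi-likelihood test with Benjamini-Hochberg adjustment over all genes tested. CPM were scaled by TMM over all 12 libraries, while fold changes come from the fit of 8. Genes named were CCAR2, HIF1A, the 15 highest and the 15 lowest fold changes among called genes with a symbol, an average of 100 or more counts and groups without overlap, up to 4 called members per list and direction, and members shown as not called. The genes and lists were chosen with earlier results of these data known.

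Alternatives were DESeq2 1.42.0, limma-voom (limma 3.58.1), other scalings, filters and thresholds, a fit of all 12 libraries, a replicate block, counts divided by 4, removal of a GC trend and leaving out each library. The sums of estimated counts are not read depths, so no counting intervals were given. Some genes that the naming rule gives are not reported here.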

Additional observations from a re-analysis of the deposited data

Results flagged for a closer look

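Values far from the other 3 libraries of their group were looked for in both groups of 127 named genes. Of 254 groups, 8 held such a library, where chance gives about 12.7 (1 in 20) for unselected, independent groups. These genes were mostly named for being called and share the same libraries, so the 2 numbers cannot be compared. The gap to the nearest library, as a share of the group's range, is given for each. In WT hypoxia, replicate 2 was high for LNCOG (0.884, 6.22 CPM) and low for TET2 (0.832, 11.3 CPM), replicate 1 was low for IL11 (0.841, 45.1 CPM) and high for IFIH1 (0.877, 3.13 CPM), and replicate 4 was low for EREG (0.830, 20.8 CPM). In KO, replicate 1 was low for S100A4 (0.887, 56.6 CPM) and high for MMP1 (0.846, 411 CPM), and replicate 3 was low for COL8A1 (0.838, 45.2 CPM).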

How the results depend on the processing

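The counts of 1498 genes higher and 1667 lower moved most with the threshold: 582 and 637 when a log2 fold change of 1 in either direction was required, and 3628 and 3762 by adjusted p alone. Leaving out each library gave 1377 to 1555 higher and 1465 to 1704 lower. The other tools, scalings and filters gave 1378 to 1627 higher and 1511 to 1797 lower, and no gene was called in opposite directions under any of these alternatives. With a replicate block the counts were 1478 and 1613; same-numbered libraries deviated together only weakly (r of 0.09, 0.12, -0.01 and 0.09 over 14529 genes), so the numbers were not taken to pair the libraries. Of 2281 values for 127 named genes, 2274 kept their direction and their side of the threshold. VWF, an endothelial marker (-1.31), lost its call under limma-voom, the replicate block and 5 of the 8 fits without 1 library, and the cause was not tested. CA9, GRAMD1B, SFTPB and OAS1 were not tested when at least 10 counts were required in every library. Precision is limited by 4 libraries a group and, for genes near 0 CPM in 1 group, by low counts.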

Other observations

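Gene families, grouped by symbol, were picked after the values were seen for their high shares of calls, where 7.08% of all genes tested were called higher and 7.88% lower. Among 256 families with at least 8 protein-coding genes tested, all 8 KRTAP genes tested, keratin-associated proteins of hair on chromosome 17, were lower in KO than in WT hypoxia, with log2 fold changes between -3.41 and -2.21 and a median of -2.73. The most abundant, KRTAP2-3, had means of 5.43 CPM in KO, 25.1 CPM in hypoxia and 15.9 CPM in WT normoxia. The genes are of 2 kinds, KRTAP2 and KRTAP4, similar in sequence within each kind, so their counts are not independent. The KRTAP4 genes were at low levels. KRTAP4-8, at -3.41 (SE 0.66), had means of 0.0531 CPM in KO and 0.581 CPM in hypoxia.

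Of 8 Toll-like receptor genes, which sense microbial molecules, 5 were higher in KO (62.5%) and 0 lower in edgeR, with a median of 1.19. TLR3, the endosomal receptor of double-stranded RNA, had means of 5.83 CPM in KO and 1.55 CPM in hypoxia (log2 fold change 1.91), and TLR4, the receptor of lipopolysaccharide, 21.02 and 8.20 CPM (log2 fold change 1.35). Of 15 protocadherin genes of the PCDHB cluster on chromosome 5, 7 were higher (46.7%), with a median of 0.63.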
